A study of Homo sapiens with 8 samples.

Results

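The genes described here are 10 well-known transcriptional targets of the tumour suppressor p53, leaving out the p21 gene: MDM2, SESN1, FAS, TP53INP1, ZMAT3, RRM2B, FDXR, TNFRSF10B, BTG2 and GADD45A. They were taken by name through the gene symbols of the array platform, which name 16 probes for 8 of the 10. These 8 stand among 20046 genes with a named probe. For FDXR and BTG2 no probe had a gene name here, and both were not analysed here. Of the 8, 6 (TNFRSF10B, TP53INP1, GADD45A, ZMAT3, SESN1 and RRM2B) passed the filter on dim probes and entered the tests, while MDM2 and FAS did not.

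RNA was measured on Illumina beadchips in SKOV3 and OVCAR5, established human ovarian carcinoma cell lines grown in RPMI medium with serum. Each line was exposed for 48 h to 10 µM lovastatin, a statin that blocks HMG-CoA reductase at the head of the mevalonate pathway, or to DMSO, the solvent. There were 8 arrays, 2 for each of the 4 groups. No label states that paired arrays were grown as separate cultures, so the p-values may measure technical spread alone.

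The p53 protein is a DNA-binding factor that responds to DNA damage and other stress. It binds pairs of short half-sites near its target genes and switches on cell cycle arrest, death receptors, DNA repair, antioxidant defence and its own inhibitor. CDKN1A, the gene of the cell cycle inhibitor p21, is the best known of these targets, but several of them also answer to other factors: TNFRSF10B and GADD45A can be induced by the stress factors CHOP and ATF4. SKOV3 cells are commonly described as lacking functional p53. Because CDKN1A rises with lovastatin in both lines, the comparison asks whether the other targets rise with it.

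Promoter windows were searched for pairs of p53 half-sites, the sequence that p53 binds, to show where it stands near a start. The windows, from RefSeq on build GRCh38.p14, run from 250 bases before to 50 bases after a transcript start. A match was 2 half-sites of 10 bases, at most 1 base apart. At most 2 departures from the half-site consensus were allowed in all, and none at the fixed C and G of each half-site. The consensus reads alike on both strands. Of 35116 windows, 187 held a match (0.533%). By gene, 184 of 27305 had a match in some window (0.674%). Windows were at hand for 6 of the 10 genes, and 2 of the 6 had a match, MDM2 and FAS. Among 27 genes with a window in a list of 30 further p53 targets, AEN and DDB2 had one. The matches are shown with the half-sites in capitals, each on the + strand:
MDM2: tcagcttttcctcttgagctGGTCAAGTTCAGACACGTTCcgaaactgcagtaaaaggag
FAS: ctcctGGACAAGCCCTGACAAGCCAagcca
AEN: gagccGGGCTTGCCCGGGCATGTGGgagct
DDB2: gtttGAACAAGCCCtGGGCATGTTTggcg
The MDM2 stretch lies at chr12:68808903-68808962, before a start inside the gene, and its match begins at position -94 from that start. The FAS stretch lies at chr10:88991304-88991333 and its match begins at position -122 from a start. The AEN stretch is chr15:88621301-88621330, and the DDB2 stretch, chr11:47214975-47215003, is the one with 0 departures. A match describes these letters and does not show binding. The 3 members that rose in SKOV3 had no window among those searched, and CDKN1A had a window without a match. Sequence outside the windows was not searched, so a gene without a match may have a site elsewhere.

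Each array detected 15370 to 17231 of its 47323 probes at a detection p under 0.01. Replicate arrays correlated at r = 0.988 to 0.994 across the 11218 genes, which do not count as independent points. The SD of the log2 difference between replicates was 0.342 in lovastatin-treated SKOV3 and 0.239 to 0.262 in the other groups. The keratin genes KRT8 and KRT18 and the Muellerian marker PAX8 were detected on all arrays of both lines, and KRT19 and MSLN on 4 of 4 SKOV3 arrays and 0 of 4 of OVCAR5. PAX8 was much dimmer in OVCAR5, with a mean log2 signal of 5.73 in DMSO against 9.52 in SKOV3. CDH1, WT1 and MUC16 were detected on none, and the leukocyte genes PTPRC and CD3E and the endothelial genes PECAM1, CDH5 and VWF on none either. CD14 was detected on 4 of 4 OVCAR5 arrays and no SKOV3 array. Of the fibroblast genes, COL1A1 was detected on 4 SKOV3 arrays, DCN on 3 and LUM on 2, DCN also on 1 OVCAR5 array, and PDGFRB on none; their part in the results was not tested.

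Values are normalized log2 signals of a gene's brightest probe unless another probe is named, and changes are log2 differences, lovastatin minus DMSO, ± standard error with n = 2 arrays per group. P-values are from limma, adjusted by Benjamini-Hochberg over all 11218 tested genes, and a gene was called at an adjusted p under 0.05. CDKN1A, the reference for the comparison, stood at 7.78 and 7.78 in SKOV3 with DMSO and at 12.01 and 12.31 with lovastatin. In OVCAR5 it went from 7.58 and 7.36 to 9.64 and 9.60. The rise was 4.38 ± 0.14 in SKOV3 and 2.15 ± 0.14 in OVCAR5 (adjusted p = 6.57e-07 and 4.67e-05). The other named probe of CDKN1A was detected on no array and was not kept. It read 4.49 and 4.42 in SKOV3 with DMSO and 4.91 and 4.89 with lovastatin. In OVCAR5 that probe read 4.42 and 4.40 with DMSO and 4.49 and 4.43 with lovastatin.

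In SKOV3, 3 of the 6 tested members rose with lovastatin: the death receptor gene TNFRSF10B, TP53INP1 and GADD45A. The other 3, ZMAT3, SESN1 and RRM2B, did not pass the test, and none fell. The 3 risers are 50% of the members tested, against 26.6% of all tested genes called higher in this comparison and 23.9% called lower. By limma, 0 members were lower at an unadjusted p under 0.05 as well. The median change of the 6 members was 0.63, against 0.03 over all tested genes. All 3 rose by less than CDKN1A.

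TNFRSF10B encodes death receptor 5, a receptor for the ligand TRAIL that starts apoptosis from the cell surface. In SKOV3 it stood at 9.69 and 9.81 with DMSO and at 11.60 and 11.61 with lovastatin. Both treated arrays lay above both controls, the rise being 1.85 ± 0.11 or 3.62-fold (adjusted p = 6.92e-06). Its second brightest probe gave 5.86 and 6.0 with DMSO against 6.92 and 7.73 with lovastatin, a rise of 1.40 ± 0.29 (adjusted p = 0.00413 over the 14851 kept probes). The dimmest was detected only on the 2 lovastatin arrays of SKOV3, through which it passed the filter, and its level there, at least 1.11-fold above DMSO, is a description only. For such a bound, each array of the undetected group was set at its lowest signal among detected probes, or at the probe's own signal where that was higher.

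TP53INP1 encodes a nuclear stress protein that promotes cell death and autophagy. Its values in SKOV3 were 6.64 and 7.03 with DMSO and 8.32 and 8.41 with lovastatin. The groups did not overlap, and the rise was 1.53 ± 0.17 or 2.88-fold (adjusted p = 0.00013). A dimmer second probe gave 5.53 and 5.42 with DMSO, detected on 1 of 2 arrays, and 7.74 and 7.43 with lovastatin. It passed the filter only through the lovastatin arrays, so its difference of 2.11 ± 0.15 is a description and no support.

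GADD45A encodes a small stress-induced protein that binds PCNA and CDK1 and delays entry into mitosis. It stood at 11.10 and 11.03 in SKOV3 with DMSO and at 12.15 and 12.10 with lovastatin. Both treated arrays were higher, by 1.06 ± 0.12 or 2.09-fold (adjusted p = 0.000135). Its second probe went from 10.56 and 10.73 to 11.42 and 11.56, a rise of 0.85 ± 0.13 (adjusted p = 0.00097 over the kept probes).

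**Figure D1:**
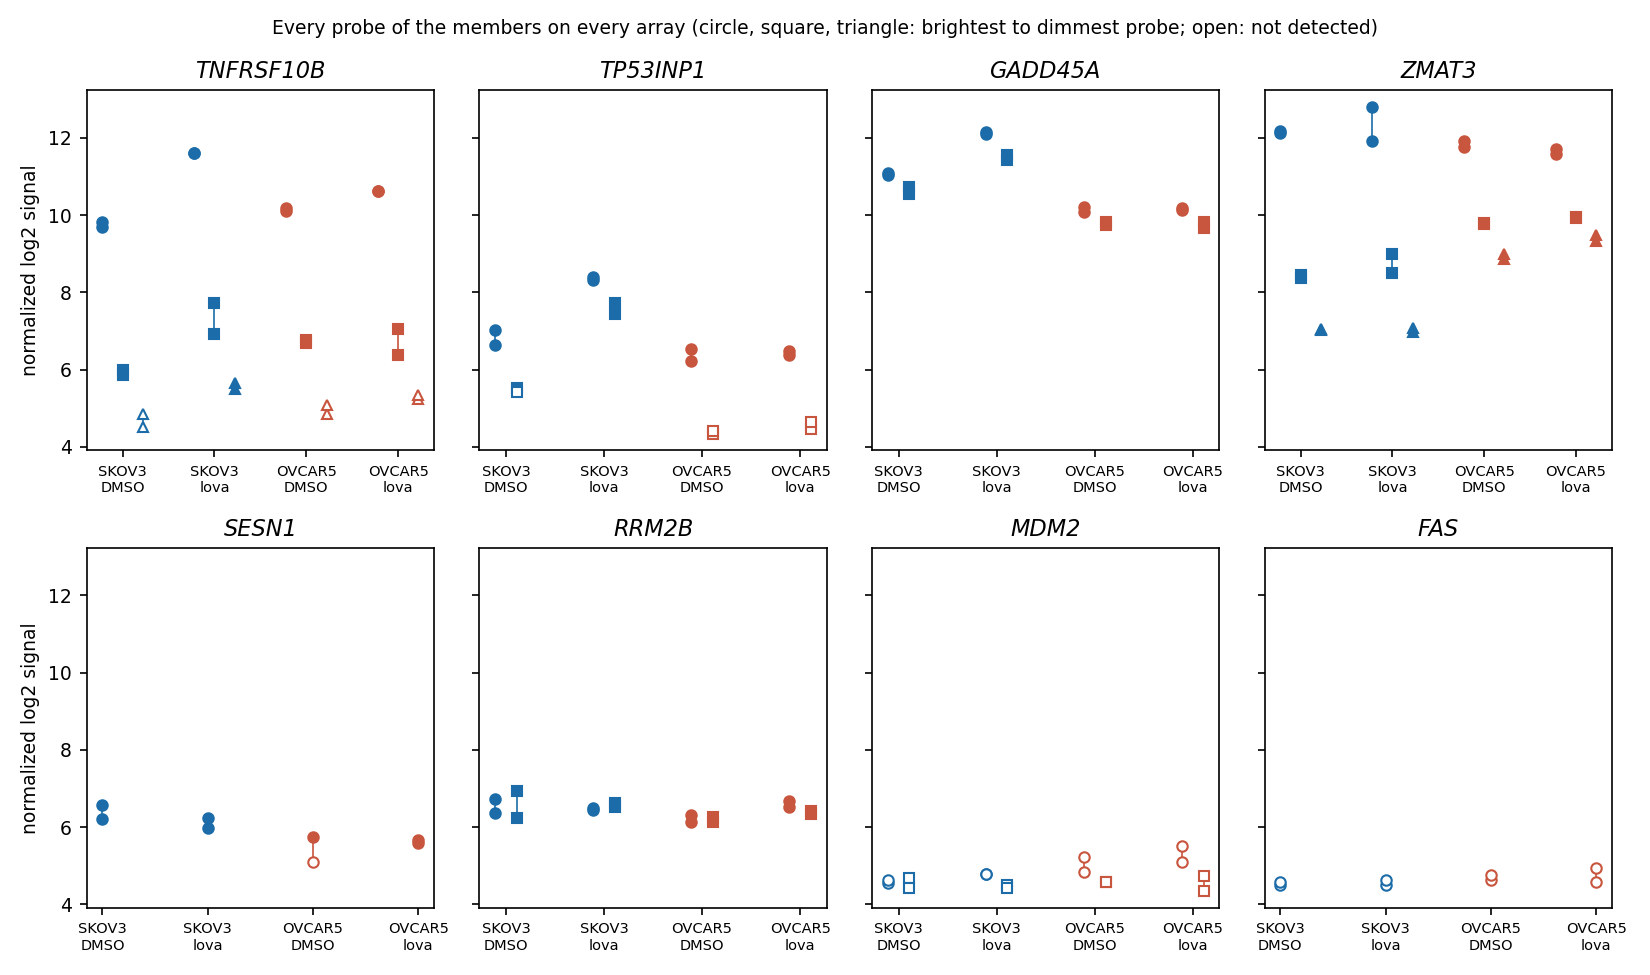
Normalized log2 signal (y axis) of all 16 probes of the 8 members with a probe, in the 4 groups (x axis, lova for lovastatin); each symbol is 1 array, lines join the 2 arrays of a group, circles, squares and triangles mark a gene's probes from the brightest to the dimmest, and open symbols were not detected. TNFRSF10B, TP53INP1 and GADD45A are higher with lovastatin in SKOV3, and MDM2 and FAS are open throughout.

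ZMAT3, SESN1 and RRM2B gave no call in SKOV3. ZMAT3, an RNA-binding zinc finger protein, stood at 12.19 and 12.14 with DMSO and at 12.80 and 11.92 with lovastatin. The treated arrays lay on either side of the controls, and the value was 0.20 ± 0.25 with a 95% interval of -0.37 to 0.77 (adjusted p = 0.533). Without the second lovastatin array of SKOV3 it was 0.64 and called (adjusted p = 0.00797), and without the first it was -0.24 (adjusted p = 0.182). SESN1, a sestrin that restrains mTORC1 in answer to stress, gave 6.58 and 6.20 with DMSO and 6.23 and 5.97 with lovastatin. The groups overlapped, at -0.29 ± 0.22 with an interval of -0.80 to 0.22 (adjusted p = 0.310).

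RRM2B encodes the p53-inducible small subunit of ribonucleotide reductase, which makes the building blocks of DNA for repair. It read 6.37 and 6.73 in SKOV3 with DMSO and 6.49 and 6.45 with lovastatin. Both treated arrays lay between the controls, at -0.08 ± 0.15 with an interval of -0.43 to 0.26 (adjusted p = 0.675). Its second probe gave -0.02 ± 0.21. The upper ends of all 3 intervals lie below the lower end for TP53INP1, 1.15, and below that for GADD45A, 0.80. Other subunits of ribonucleotide reductase fell in SKOV3. RRM2 changed by -3.88 ± 0.13, detected on 1 of 2 lovastatin arrays. RRM1, singled out after its value had been seen, changed by -1.63 ± 0.13.

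MDM2, the ubiquitin ligase that destroys p53 and is itself a p53 target, was detected on none of the 8 arrays by either of its 2 probes. Its brighter probe read 4.55 and 4.64 in SKOV3 with DMSO and 4.79 and 4.78 with lovastatin. In OVCAR5 it read 5.23 and 4.85 with DMSO and 5.11 and 5.51 with lovastatin, the lowest detection p being 0.0104. With all named probes admitted to the fit, 20046 genes, its change was 0.19 ± 0.17 in SKOV3 (adjusted p = 0.531) and 0.27 ± 0.17 in OVCAR5 (adjusted p = 0.424).

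FAS, the death receptor for Fas ligand, was likewise detected on none of the 8 arrays by its single probe. Its values lay between 4.49 and 4.62 in SKOV3 and between 4.57 and 4.94 in OVCAR5. In the fit of all named probes its change was 0.02 ± 0.14 in SKOV3 and 0.06 ± 0.14 in OVCAR5 (adjusted p = 0.95 and 0.885). A rise that stayed below detection was not measurable here.

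In OVCAR5, 1 of the 6 tested members was called higher with lovastatin, TNFRSF10B, and none lower. That is 16.7% of the members tested, against 13.5% of all tested genes called higher and 9.29% called lower, so the share is near that of all genes. TNFRSF10B went from 10.12 and 10.18 with DMSO to 10.62 and 10.61 with lovastatin. The groups did not overlap, and the rise was 0.47 ± 0.11 or 1.38-fold (adjusted p = 0.0199). The call was lost without any 1 of the 4 OVCAR5 arrays (adjusted p = 0.0831 to 0.119), under median scaling (0.34, adjusted p = 0.0823) and with the mean of its probes (0.26, adjusted p = 0.258). Its second probe gave -0.02 ± 0.29, not called, and its dimmest was detected on none of the 4 OVCAR5 arrays.

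The other members gave small values in OVCAR5. GADD45A read 10.22 and 10.09 with DMSO and 10.20 and 10.12 with lovastatin. Its change was 0.01 ± 0.12, with an interval of -0.26 to 0.27 (adjusted p = 0.977). TP53INP1 read 6.53 and 6.23 with DMSO and 6.38 and 6.47 with lovastatin. The treated arrays lay between the controls, at 0.04 ± 0.17 with an interval of -0.34 to 0.42 (adjusted p = 0.887).

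RRM2B had both treated arrays of OVCAR5 above both controls, from 6.13 and 6.31 to 6.67 and 6.53, but its 0.39 ± 0.15 missed the threshold (adjusted p = 0.104). SESN1 read 5.11, not detected, and 5.75 with DMSO and 5.68 and 5.59 with lovastatin, at 0.20 ± 0.22 (adjusted p = 0.566). The brightest probe of ZMAT3 went from 11.92 and 11.77 to 11.58 and 11.72, at -0.19 ± 0.25 (adjusted p = 0.634). The dimmest of its 3 probes went the other way, from 8.86 and 8.99 to 9.33 and 9.49, a rise of 0.48 ± 0.12 (adjusted p = 0.0293 over the kept probes).

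Of the 13 kept probes of the members, the dimmest of TNFRSF10B and the second of TP53INP1 were kept only through the SKOV3 lovastatin arrays and are left out of the counts. Of the others, 2 of 2 for TNFRSF10B, 1 of 1 for TP53INP1 and 2 of 2 for GADD45A were called in SKOV3, and none for ZMAT3, SESN1 and RRM2B. Of all kept probes, 48.8% were called in SKOV3 in either direction. In OVCAR5, 20.6% of all kept probes were called, and 1 probe of TNFRSF10B and 1 of ZMAT3 were among them.

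**Figure D2:**
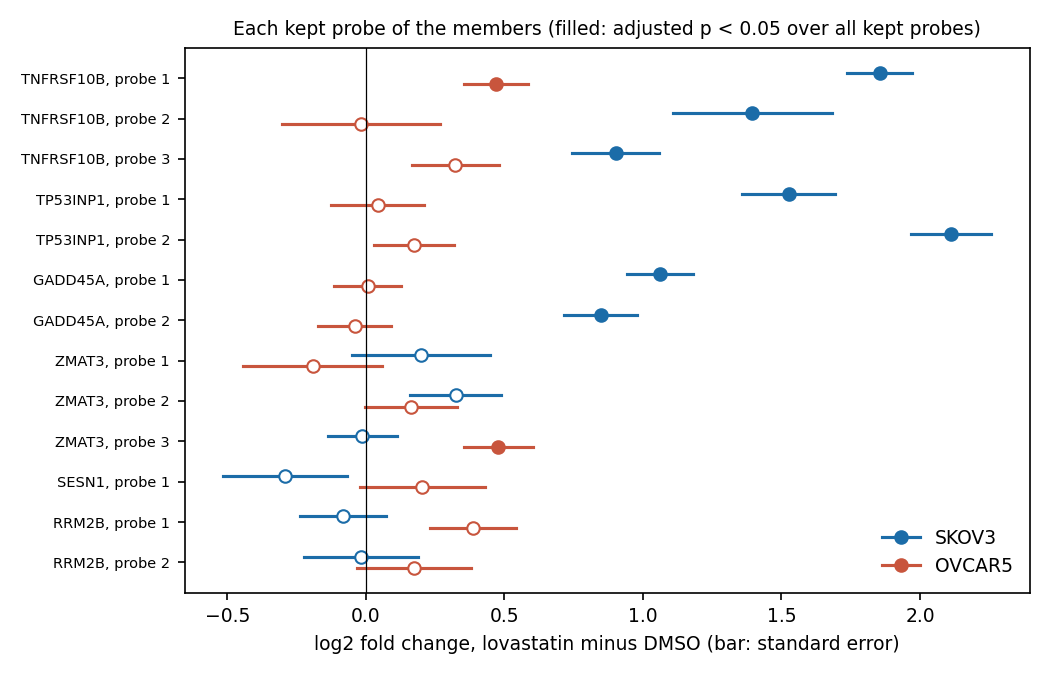
Log2 fold change, lovastatin minus DMSO (x axis), of each of the 13 kept probes (y axis, probes numbered from a gene's brightest) in SKOV3 and OVCAR5; points are fitted values, bars the standard error with n = 2 arrays per group, and filled points passed an adjusted p of 0.05 over all kept probes. The probes of TNFRSF10B, TP53INP1 and GADD45A lie at 0.85 or above in SKOV3, with TNFRSF10B probe 3 and TP53INP1 probe 2 kept only through its lovastatin arrays, and the 3 probes of ZMAT3 do not share a direction in either line.

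The lovastatin change differed between the lines for 3 of the 6 tested members, in each case larger in SKOV3. The difference, SKOV3 change minus OVCAR5 change, was 1.48 ± 0.23 for TP53INP1, 1.39 ± 0.16 for TNFRSF10B and 1.05 ± 0.16 for GADD45A (adjusted p = 0.00269, 0.000619 and 0.0025). Of all tested genes, 12.8% were called in this direction. For CDKN1A the difference was 2.23 ± 0.20 (adjusted p = 0.000222). RRM2B and SESN1 had differences of -0.47 ± 0.21 and -0.50 ± 0.32, and ZMAT3 of 0.39 ± 0.35, none of them called. Without the second lovastatin array of SKOV3, ZMAT3 too was called, at 0.83 (adjusted p = 0.0144).

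**Figure D3:**
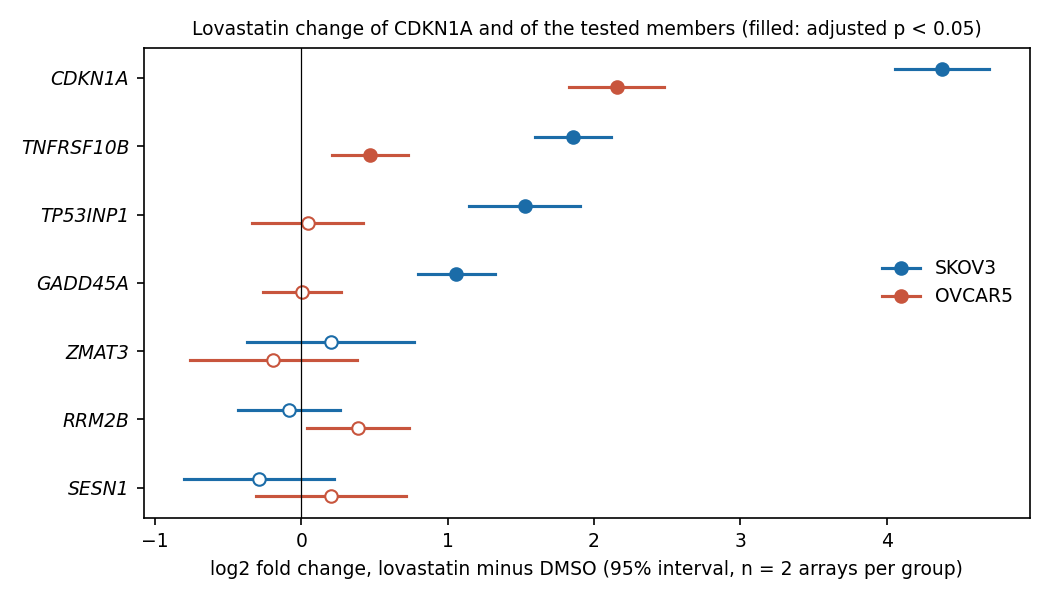
Log2 fold change, lovastatin minus DMSO (x axis), of CDKN1A and of the 6 tested members (y axis) in SKOV3 and OVCAR5; points are fitted values, bars 95% intervals with n = 2 arrays per group, and filled points passed an adjusted p of 0.05. CDKN1A stands at 4.38 and 2.15, beyond every member in each line, and the intervals of ZMAT3, RRM2B and SESN1 span 0 in SKOV3.

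Before any drug the lines differed in some of these genes. In DMSO, 3 of the 6 tested members were called higher in SKOV3 than in OVCAR5 and 1 lower, against 32.3% and 29.6% of all tested genes. SESN1 was higher in SKOV3 by 0.96 ± 0.22 (adjusted p = 0.00526), GADD45A by 0.91 ± 0.12 (adjusted p = 0.000178) and TP53INP1 by 0.45 ± 0.17 (adjusted p = 0.0406). TNFRSF10B differed by -0.40 ± 0.11, that is lower in SKOV3 (adjusted p = 0.0147). RRM2B and ZMAT3 gave 0.34 ± 0.15 and 0.32 ± 0.25 (adjusted p = 0.0848 and 0.293). The probes of ZMAT3 disagreed: the second brightest was at -1.37 ± 0.16 and the dimmest at -1.89 ± 0.12, lower in SKOV3 (adjusted p = 0.000138 and 4.23e-06 over the kept probes). CDKN1A did not pass the test between the lines in DMSO, at 0.31 ± 0.14 (adjusted p = 0.0859).

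Across the groups, GADD45A was lowest in OVCAR5 with either treatment, higher in SKOV3 with DMSO and highest in SKOV3 with lovastatin. TP53INP1 was in the same order, with the OVCAR5 groups not separated. TNFRSF10B ran from SKOV3 with DMSO through OVCAR5 with DMSO and OVCAR5 with lovastatin to SKOV3 with lovastatin. In arrays of whole cultures, fewer cells with a transcript and less of it in each cell cannot be told apart.

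A list of 30 further p53 targets was drawn from textbook knowledge and includes CDKN1A. In SKOV3, 9 of its 26 tested genes rose (34.6%), 6 fell (23.1%) and 11 did not pass, against 26.6% higher and 23.9% lower of all tested genes. Without CDKN1A, 8 of 25 rose (32%). The shares are near those of all genes. GDF15, SESN2 and TP53I11, the last named for this reason alone, entered the tests only through lovastatin arrays. GDF15 and SESN2 are counted among the risers, so these shares are a description only. The median change of the 26 was 0.05, against 0.03 over all tested genes, and also 0.05 with the 3 genes left undetected in a group at their bound. The secreted stress cytokine gene GDF15 stood at least 49.8-fold higher. SESN2, the stress-induced relative of SESN1, stood at least 4.60-fold higher. Both bounds are descriptions and no support. BBC3, the BH3-only gene of PUMA, rose by 1.32 ± 0.16 (adjusted p = 0.000245), while BAX, its pore-forming relative, had a value of 0.10 ± 0.17 (adjusted p = 0.635). PLK2, a polo-like kinase, changed by -3.39 ± 0.14 (adjusted p = 1.34e-06).

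Of the 4 genes with half-site pairs in their windows, MDM2 and FAS were below detection. DDB2, which recognises ultraviolet damage in DNA, changed by -1.56 ± 0.16, detected on 1 of 2 lovastatin arrays (adjusted p = 0.000101). AEN, an apoptosis-enhancing nuclease, changed by -0.80 ± 0.12 (adjusted p = 0.000791). In OVCAR5 their values were 0.06 ± 0.16 and -0.25 ± 0.12 (adjusted p = 0.843 and 0.173). In all, 4 of the 33 genes of both sets with a window carry the sequence, too few to compare with the rest. DDB2 and AEN were singled out for their sequence after their values had been seen.

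In OVCAR5, 7 of the 26 further targets, CDKN1A among them, rose (26.9%) and 1 fell (3.85%), against 13.5% and 9.29% of all tested genes. Without CDKN1A, 6 of 25 rose (24%). The median was 0.26, or 0.09 with the 5 genes left undetected in a group at their bound. In both lines, 5 of the list rose, or 4 of 25 without CDKN1A (16%), against 8.38% of all tested genes. GDF15, counted in each of these shares of risers, entered the tests only through lovastatin arrays, so the shares are a description only. It was at least 4.33-fold higher in OVCAR5. PHLDA3, an inhibitor of AKT signalling, was at least 2.83-fold higher there and rose by 1.49 ± 0.13 in SKOV3. CCNG2, an atypical cyclin, was at least 2.12-fold higher and rose by 1.57 ± 0.19. SFN, the 14-3-3 sigma gene, rose by 1.31 ± 0.20 in OVCAR5 and by 0.81 ± 0.20 in SKOV3. CDKN1A is the fifth. PLK2 was the gene that fell in OVCAR5, by 0.87 on the log2 scale. PHLDA3, CCNG2 and SFN were singled out after their values had been seen.

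**Figure D4:**
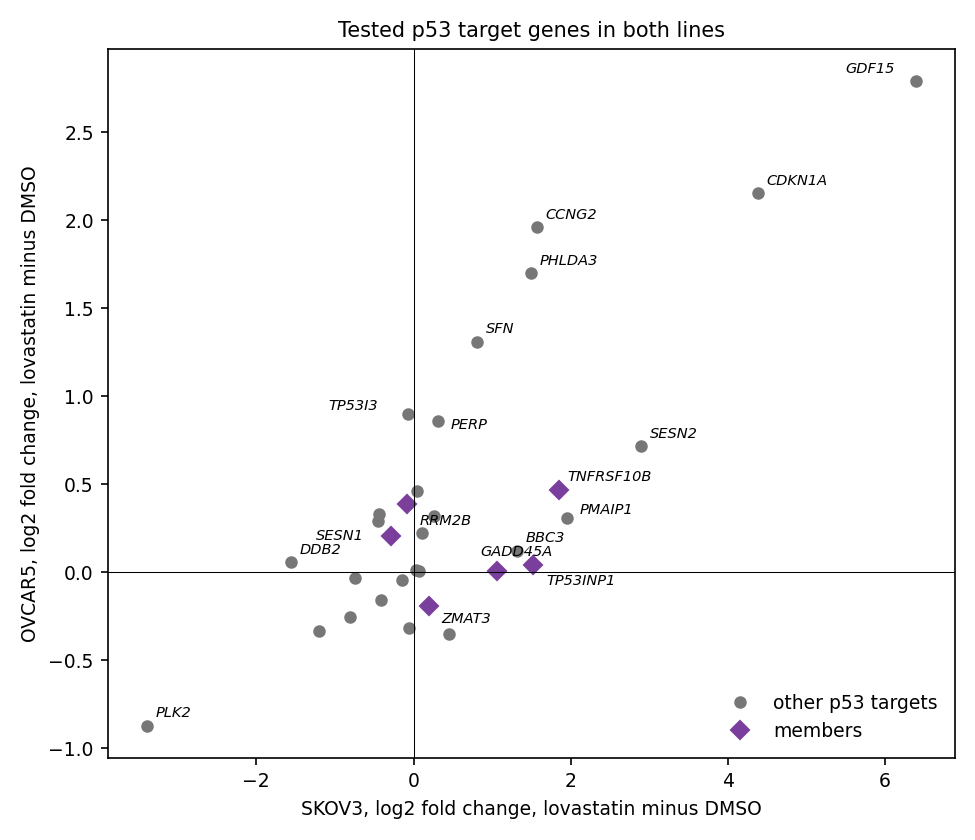
Log2 fold change, lovastatin minus DMSO, in SKOV3 (x axis) and OVCAR5 (y axis) of the 26 tested further p53 targets (grey circles) and the 6 tested members (purple diamonds); each symbol is 1 gene at its fitted value over n = 2 arrays per group, which for genes undetected in a group is no bound. GDF15 and CDKN1A lie far to the upper right, PLK2 to the lower left, and TNFRSF10B, TP53INP1 and GADD45A lie to the right of 0 in SKOV3 with OVCAR5 values of 0.47 or less.

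Among regulators of p53, 24 were listed and 16 tested. In SKOV3 6 of them fell (37.5%) and 0 rose by limma, also at an unadjusted p under 0.05, against 23.9% lower and 26.6% higher of all tested genes. CHEK1, a DNA damage kinase, changed by -2.23 ± 0.11, WRAP53, a telomerase and Cajal body factor, by -2.39 ± 0.23, and RPS7, a ribosomal protein that binds MDM2, by -1.84 ± 0.19 (adjusted p = 2.81e-06, 6.68e-05 and 0.000106). MDM4, the partner of MDM2 in restraining p53, was detected on none of the 4 SKOV3 arrays and had 0.48 ± 0.33 in OVCAR5 (adjusted p = 0.340). In OVCAR5, 1 of the 16 rose, the kinase gene HIPK2, by 0.77 ± 0.12, and 1 fell, CHEK1, at -0.52 ± 0.11 (adjusted p = 0.00291 and 0.0119).

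Of 20 listed paralogs and partners of the members, 15 were tested: 6 rose (40%) and 3 fell (20%) in SKOV3, against 26.6% and 23.9% of all tested genes. The 6 include SESN2, also in the list of further targets, which entered the tests only through lovastatin arrays, so the share of risers is a description only. In OVCAR5 3 rose (20%) and 5 fell (33.3%), against 13.5% and 9.29%. TNFRSF10A, the other TRAIL death receptor, rose in SKOV3 by 1.51 ± 0.20 (adjusted p = 0.000429) and had 0.19 ± 0.20 in OVCAR5 (adjusted p = 0.558). TNFRSF10D, a TRAIL decoy receptor, rose by 0.85 ± 0.19 and 1.65 ± 0.19 in SKOV3 and OVCAR5 (adjusted p = 0.00598 and 0.000715). TP53INP2, an autophagy factor related to TP53INP1, rose in both lines, by 1.55 ± 0.13 and 0.99 ± 0.13 (adjusted p = 3.16e-05 and 0.00131). BTG1, an antiproliferative relative of BTG2, rose by 2.33 ± 0.12 and 1.35 ± 0.12 (adjusted p = 2.88e-06 and 0.000204). GADD45B, the stress gene beside GADD45A in its family, had 0.25 ± 0.12 in SKOV3 (adjusted p = 0.115) and changed by -0.45 ± 0.12 in OVCAR5 (adjusted p = 0.0280). SESN3 did not pass the filter on dim probes. TNFRSF10A, TP53INP2 and GADD45B were singled out after their values had been seen.

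Likeness to other genes was measured as the root mean square difference of the 4 group means, after a gene's own mean was taken off, among the 6302 tested genes whose group means span at least 1 log2. The nearest to CDKN1A was DDIT3, the gene of CHOP, at 0.26. The members stood at 1.21 (TNFRSF10B) to 1.82 (SESN1) from CDKN1A. TNFRSF10B was nearer to it than all but 2.60% of the tested genes, TP53INP1 than all but 3.38% and GADD45A than all but 6.75%, while RRM2B and SESN1 had 40.8% and 41.1% of the genes nearer. The nearest to TNFRSF10B were JMJD1C at 0.04 and GTF2IRD1 at 0.07, to TP53INP1 RNF187 at 0.06 and TMEM45B at 0.07, and to GADD45A B4GALNT4 at 0.04 and MIB1 at 0.05. SESN1 was nearest to CPT2 at 0.02 and MCUB at 0.04, ZMAT3 to TSTD2 at 0.11 and RRM2B to PJVK at 0.26. With 4 points a gene, such nearness describes these group means only.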

How the data were processed

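Probe intensities as scanned, without background subtraction or normalization, were deposited by the authors in a table that per the file headers gives 1 mean signal per probe and array. Beside each intensity, the deposited table gives a detection p-value. The authors' log2 values form another deposited table, for which the submitters' processing notes name limma; further settings are not stated. Neqc run on each line alone gave 99.997% (SKOV3) and 99.987% (OVCAR5) of these log2 values within 0.01; 1 value is missing, and the medians are 4.81 and 4.74.

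Values used here came from the intensities of all 8 arrays by neqc (limma 3.58.1, R 4.3.3; background from the detection p-values, quantile normalization, offset 16). Figures used matplotlib 3.10.9 in Python 3.11.15. Of 47323 probes, 30113 had 1 gene symbol in the platform annotation, 8 several and 17202 none here; 30074 of the first matched a current gene record, by which symbols were updated. A probe was kept when at least 2 arrays detected it (14851 probes), and a gene's brightest kept probe stood for it (11218 genes). Limma fitted 4 group means over 8 arrays, with Benjamini-Hochberg adjustment across all genes; the line difference is a contrast of that fit. The code was tested on simulated data. The number of arrays limits the precision.

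The members and lists were chosen with earlier results of these data known. All members are named; of each list the 4 genes with the largest change in either line could be named, and CDKN1A, MDM4, BAX, BBC3, SESN2 and SESN3 always; genes named outside this rule are marked in the text. Alternatives covered normalization, filter, probe choice, variance model, pairing and single arrays.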

Additional observations from a re-analysis of the deposited data

Results flagged for a closer look

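The lovastatin change differed between the lines by a contrast of limma's fit for 3 of the 6 tested p53 targets. TP53INP1 changed more in SKOV3 by 1.48 log2 (adjusted p = 0.00269), TNFRSF10B by 1.39 (adjusted p = 0.000619) and GADD45A by 1.05 (adjusted p = 0.0025), with both SKOV3 lovastatin arrays above both SKOV3 DMSO arrays for each. Their call held in all 18 other settings and single-array omissions tried, with adjusted p up to 0.0135, 0.00609 and 0.0141 for TP53INP1, TNFRSF10B and GADD45A.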

How the results depend on the processing

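The 3 calls of SKOV3 and the 3 calls of the line difference held in every setting tried. With 1 array left out, the count of members called was 3 to 4 in SKOV3, 0 to 1 in OVCAR5, 3 to 4 for the line difference and 2 to 5 between the lines in DMSO; a lone array was then assumed to vary like the others. All genes called then numbered 4321 to 5579, 1355 to 3200, 2086 to 3452 and 5899 to 7383 in the same order. In OVCAR5, 0 members were called under median scaling and with the mean of a gene's probes (against 1 as reported, all by limma; 1 member had an unadjusted p under 0.05 in either case, against 2). Median scaling moved the median of all genes from 0.01 to -0.11 in OVCAR5 and from 0.01 to -0.12 between the lines, and the share of higher calls from 59.3% to 43.3% and from 52.1% to 44.3%; the authors' table, normalized within a line, moved that between the lines to 63.6% and its median to 0.21.

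Values that changed sign were uncalled as reported and after the change, except ZMAT3 between the lines, which with the mean of its probes was -0.98 (adjusted p = 0.000798) and under median scaling -0.027. In SKOV3 without 1 array, RRM2B ranged from -0.27 to 0.10 and ZMAT3 from -0.24 to 0.64, and the line difference of ZMAT3 from -0.049 to 0.83; the upper values of ZMAT3 were called. In OVCAR5, GADD45A was -0.13 under median scaling and -0.017 with the mean of its probes, and ZMAT3 0.15 with the mean of its probes. Without 1 array there, GADD45A ranged from -0.056 to 0.069, SESN1 from -0.11 to 0.52 and TP53INP1 from -0.11 to 0.19. The cause was not tested. Between the lines in DMSO, the call of TP53INP1 held in 12 of 18 settings and that of TNFRSF10B in 14.

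Same-numbered arrays deviated together at r = 0.23 in SKOV3 and -0.03 in OVCAR5 across genes, and nothing in the labels pairs them. With a replicate block, 5819, 2567, 3151 and 7070 genes and 3, 1, 3 and 4 members were called in SKOV3, in OVCAR5, for the line difference and in DMSO, and it changed no member's call. The 2 arrays a group and dim probes (SESN1, RRM2B, MDM2, FAS) limit what could be detected.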
